A study of Homo sapiens with 3 samples.

Results

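Gene expression was examined for 37 genes that sense, fold or dispose of proteins in the endoplasmic reticulum (ER). They were 4 genes of a sensor class, 12 chaperones and co-chaperones, 6 disulfide isomerases and oxidases, 13 genes of ER-associated degradation and 2 translocon subunits. The sensor class holds the ER stress sensors ATF6, ERN1 and EIF2AK3, and XBP1, a transcription factor that is not itself a sensor. All 37 were taken by gene symbol from a list made for their roles, and 35 had a usable measurement among 12321 genes tested. The list was chosen with earlier results of these data known, so its counts against all genes are not independent of them. The cells were HCT-116, an established human colorectal cancer line grown from colon tissue. SCD1-WT cells were treated for 24 h with DMSO, the vehicle, or with T-3764518, an inhibitor of stearoyl-CoA desaturase 1 (SCD1), the enzyme that makes monounsaturated fatty acids. The third array held HCT-116 cells in which SCD1 had been knocked out (SCD1-KO). Neither vehicle nor treatment time is in its labels; the methods give DMSO or inhibitor for 24 h and an inhibitor dose of 100 nM. By the methods, SCD1-KO clones were made with CRISPR-Cas9 and picked by PCR, and the clone on the array is not named, so the SCD1-KO array may show the state of a single clone. There was 1 array for each of the 3 conditions and no replicate, so all differences below compare arrays and carry no test.

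Proteins that enter the secretory pathway are folded in the ER by chaperones, which hold unfolded chains, and by disulfide isomerases, which form and rearrange disulfide bonds. When unfolded proteins build up or the ER membrane changes its lipid makeup, the sensors IRE1 (gene ERN1), PERK (gene EIF2AK3) and ATF6 start the unfolded protein response: IRE1 splices XBP1 mRNA, ATF6 is cut to release a transcription factor, and PERK slows translation and favours ATF4. XBP1 and ATF6 raise transcription of chaperones and of degradation genes, whose products draw misfolded proteins back to the cytosol for the proteasome. The array reads total mRNA, so neither XBP1 splicing nor the activity of a sensor was measured.

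Signals are MAS5 intensities in arbitrary units, and a ratio is given on the log2 scale, where 1 is a 2-fold difference. The median signal of all probe sets was 56.7 to 68.8 on the 3 arrays, and probe sets with a mean signal over the arrays under 56.6, the median of all, were left out. None of the 4 SCD probe sets was lower on the array labelled SCD1-KO than with DMSO; the ratios of their signals were 1.01 to 2.56. A transcript with part of its gene deleted can still bind probes outside the deletion, and the sources used here do not place these probe sets relative to it, so they do not check the knockout. The paper checked the deletion by genome sequencing and reports no SCD1 protein in SCD1-KO cells by western blot. Of 8 epithelial and colon markers, KRT8, KRT18, KRT19, EPCAM and CDH1 were bright, with a highest signal of 6686 or more, whereas CDX1, CDX2 and VIL1 did not exceed 115. EPCAM and CDH1 were lower in SCD1-KO cells than with DMSO, at -1.30 and -1.48, and whether this bears on the ER genes was not tested. Of 9 markers of blood, endothelial, stromal, glial and liver cells, PTPRC, VWF, COL3A1, GFAP and ALB stayed at 41.0 or less on every array, CD3E reached 106, PECAM1 253 and COL1A1 1409, and CD68 had no probe set of its own. None of 9 housekeeping genes was 2-fold higher or lower in any ratio, where 2.18% to 4.52% of all genes were in each ratio and direction. Total RNA of whole cultures was measured, so a large difference in some cells and a smaller one in all cannot be told apart.

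With T-3764518, the ratios of the ER genes to DMSO lay mostly above 0. Of the 35 tested, 34 had a ratio above 0, against 41.0% of all genes tested. ERN1 and ERO1A, at 0.054 and 0.031, lay close to 0 with probe sets of both signs, and CALR was below 0. Over all alternatives of processing, CALR and ERO1A were the only ones to change sign with T-3764518. At least 1.5-fold higher were 19, against 6.62% of all genes. At least 2-fold higher were XBP1, HSPA5, HYOU1, DNAJB9, DNAJC3, HERPUD1 and SEC61B, 7 genes against 2.18% of all. None was 2-fold lower, against 3.30% of all, or 1.5-fold lower, against 12.3%. The median ratio was 0.68 for these genes and -0.087 for all genes. ER genes tend to be bright, and 21 of the 35 lay in the brightest quintile of genes, where 47.5% of all genes were above 0 and 2.11% were at least 2-fold higher.

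On the SCD1-KO array the same genes stood near the background. A ratio to DMSO above 0 was found for 20 of 35, against 48.9% of all genes tested. XBP1, DNAJB9, HERPUD1 and SEC61B were at least 1.5-fold higher, 4 genes against 9.95% of all, and DNAJB9 alone was at least 2-fold higher, against 3.12%. ERO1A was the 1 gene at least 1.5-fold lower, against 11.4% of all, and none was 2-fold lower, against 3.93%. The median was 0.11 for the ER genes and -0.011 for all genes. The ratios of T-3764518 and of SCD1-KO cells share the DMSO array, so a value that is off on that array moves both.

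**Figure D1:**
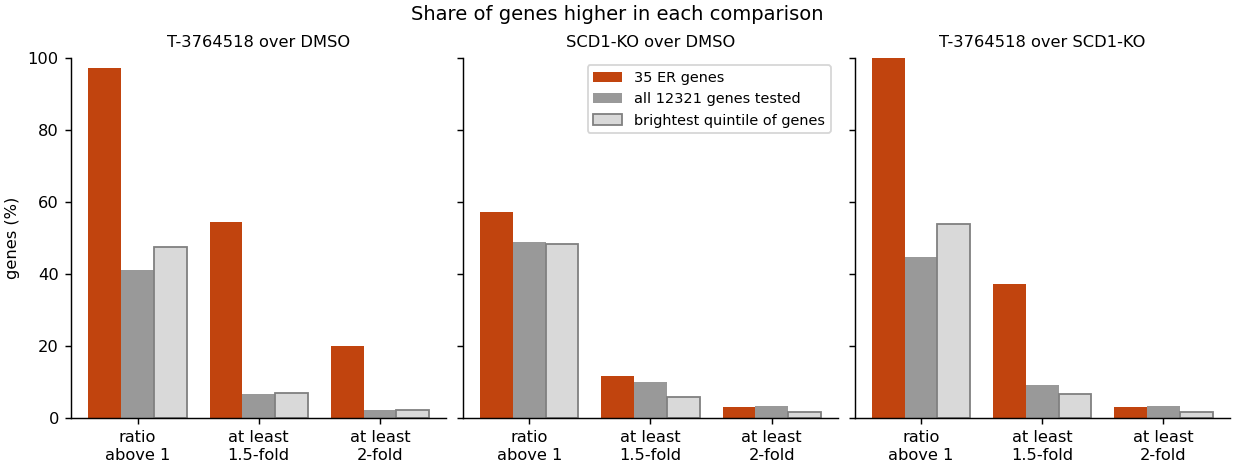
Share of genes in percent that were above the comparator, at least 1.5-fold higher or at least 2-fold higher, in T-3764518 over DMSO, SCD1-KO over DMSO and T-3764518 over SCD1-KO. Bars show the 35 ER genes, all 12321 genes tested and the brightest quintile of genes; the ER genes stand far above both with T-3764518 and near them in SCD1-KO cells over DMSO.

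**Figure D2:**
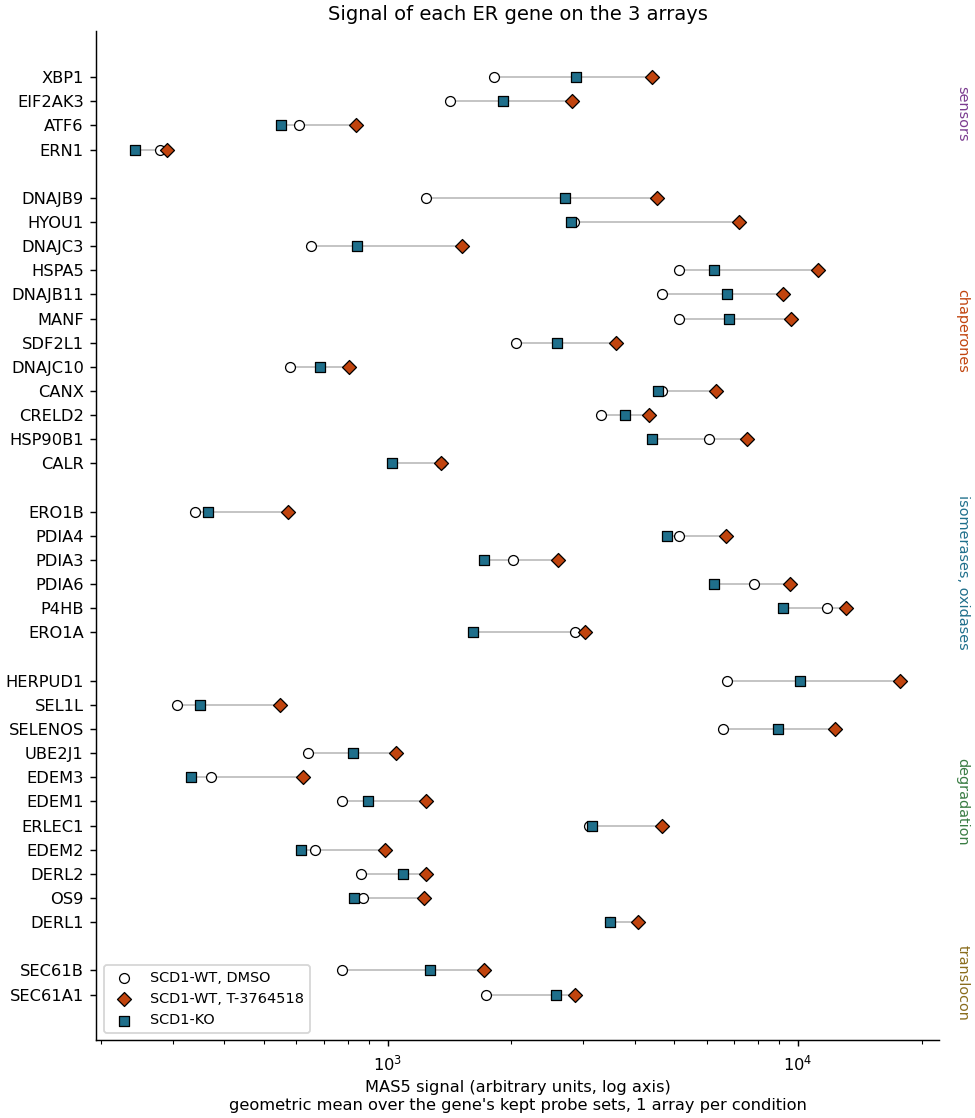
MAS5 signal of each tested ER gene on a log axis, as the geometric mean over its kept probe sets, with 1 point per array: SCD1-WT with DMSO, SCD1-WT with T-3764518 and SCD1-KO. Genes are grouped by role and ordered by their ratio with T-3764518; the T-3764518 point lies farthest right for all but CALR, whose T-3764518 and DMSO points coincide at 1350 and 1351.

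The promoters of the 7 genes past 2-fold under T-3764518, and that of CALR, are shown first, because transcription factors of the unfolded protein response bind short motifs there. Each sequence is the 250 bases before the start of the gene, from RefSeq on GRCh38.p14, written along the gene's strand. The ER stress response element (ERSE), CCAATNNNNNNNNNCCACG, is bound by NF-Y at CCAAT and by ATF6 or XBP1 at CCACG. It is in capitals in HSPA5 (chr9:125241344-125241593, minus strand), in XBP1 (chr22:28800570-28800819, minus strand) and, in the opposite direction, in CALR (chr19:12938359-12938608, plus strand). CALR is shown because its ratio with T-3764518 was below 0. XBP1 has another start window, in which no ERSE was found, and only the window with an ERSE is shown.
HSPA5: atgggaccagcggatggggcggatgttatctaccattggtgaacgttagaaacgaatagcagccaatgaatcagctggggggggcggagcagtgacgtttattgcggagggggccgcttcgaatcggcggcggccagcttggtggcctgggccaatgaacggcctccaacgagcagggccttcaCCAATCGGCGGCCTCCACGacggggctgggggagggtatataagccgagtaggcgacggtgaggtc
XBP1: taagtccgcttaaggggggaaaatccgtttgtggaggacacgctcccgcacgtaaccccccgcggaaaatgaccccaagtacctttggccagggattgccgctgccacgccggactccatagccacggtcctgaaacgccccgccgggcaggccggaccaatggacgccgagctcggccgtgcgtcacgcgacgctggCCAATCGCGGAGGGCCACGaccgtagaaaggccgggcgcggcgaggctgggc
CALR: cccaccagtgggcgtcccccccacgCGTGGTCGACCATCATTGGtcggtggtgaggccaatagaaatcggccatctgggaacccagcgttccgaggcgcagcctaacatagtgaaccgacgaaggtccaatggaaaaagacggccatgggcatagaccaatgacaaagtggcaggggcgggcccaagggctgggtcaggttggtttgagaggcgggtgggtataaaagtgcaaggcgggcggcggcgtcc

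A shorter form, ERSE-II (ATTGGNCCACG), is in capitals in HERPUD1 (chr16:56931892-56932141, plus strand) and, at 2 sites in the opposite direction, in HYOU1 (chr11:119057206-119057455, minus strand). In DNAJB9 (chr7:108569624-108569873, plus strand), the gene with the highest ratio, in DNAJC3 (chr13:95676889-95677138, plus strand) and in SEC61B (chr9:99222032-99222281, plus strand), neither form was found. Capitals mark the CCACG motifs, in either direction, of DNAJB9 and DNAJC3, and SEC61B has none.
HERPUD1: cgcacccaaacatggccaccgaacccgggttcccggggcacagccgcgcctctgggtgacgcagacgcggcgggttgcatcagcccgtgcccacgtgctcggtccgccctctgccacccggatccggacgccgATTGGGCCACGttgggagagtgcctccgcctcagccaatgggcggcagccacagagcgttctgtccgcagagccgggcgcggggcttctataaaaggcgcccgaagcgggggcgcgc
HYOU1: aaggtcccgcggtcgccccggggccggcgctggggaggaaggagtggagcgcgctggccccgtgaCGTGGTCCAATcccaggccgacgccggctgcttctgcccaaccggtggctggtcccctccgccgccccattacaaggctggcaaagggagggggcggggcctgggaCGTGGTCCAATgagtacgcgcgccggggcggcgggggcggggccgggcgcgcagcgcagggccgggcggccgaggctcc
DNAJB9: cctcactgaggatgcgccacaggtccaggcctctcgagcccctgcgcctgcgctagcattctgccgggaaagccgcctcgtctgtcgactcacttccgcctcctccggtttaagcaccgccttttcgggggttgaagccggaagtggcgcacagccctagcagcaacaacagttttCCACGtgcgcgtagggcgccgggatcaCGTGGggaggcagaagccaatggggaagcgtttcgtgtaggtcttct
DNAJC3: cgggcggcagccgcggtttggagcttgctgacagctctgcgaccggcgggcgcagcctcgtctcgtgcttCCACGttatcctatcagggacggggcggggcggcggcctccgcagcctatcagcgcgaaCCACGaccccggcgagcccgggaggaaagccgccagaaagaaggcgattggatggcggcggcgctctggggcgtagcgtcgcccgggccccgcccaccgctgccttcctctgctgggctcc
SEC61B: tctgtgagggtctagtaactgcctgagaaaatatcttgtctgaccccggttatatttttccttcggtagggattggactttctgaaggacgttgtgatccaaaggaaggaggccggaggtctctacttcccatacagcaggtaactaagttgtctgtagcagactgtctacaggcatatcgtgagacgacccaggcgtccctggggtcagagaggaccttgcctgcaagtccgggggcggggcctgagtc

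Counted back from the gene start, the ERSE lay at -66 to -48 in HSPA5, at -52 to -34 in XBP1 and at -225 to -207 in CALR. The ERSE-II lay at -117 to -107 in HERPUD1 and at -185 to -175 and -79 to -69 in HYOU1. Windows were at hand for 34 of the 37 genes, 41 in all, and for PDIA3, DERL1 and DERL3 none was. On either strand, an ERSE was found for 8 genes, XBP1, HSPA5, HSP90B1, CALR, CANX, CRELD2, PDIA6 and ERO1B, in 9 of the 41 windows, against 0.0740% of 35116 windows of the same length. An ERSE-II was found for HYOU1, SDF2L1 and HERPUD1, against 0.0513% of windows, and was searched after the promoters had been seen. Both motifs are named for the response that many of these genes belong to, so neither share is an independent result. The motif CCACG alone, which both forms contain, was in 65.9% of these genes' windows and 33.5% of all. The core of the UPR element bound by XBP1 and ATF6, TGACGTGG, was in HYOU1, DNAJC10 and UBE2J1, against 0.612% of windows, and in HYOU1 it overlaps an ERSE-II. TGATGCAAT, a form of the element bound by ATF4, was in 0 of the 41 windows and 0.216% of all. Only this exact form was searched, so sites that differ from it in a base were not counted. The HERPUD1 window above holds ttgcatca, which reads TGATGCAA on the other strand.

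Genes with and without a matched ERSE overlapped in their ratios. With T-3764518, the 8 tested genes with an ERSE had a median ratio to DMSO of 0.41, from -0.095 for CALR to 1.28 for XBP1. At least 2-fold higher were 2 of them, against 2.18% of all genes. The 25 with a window and no ERSE had a median of 0.72, from 0.031 to 1.90, which covers most of the first range. Of these 25, 5 were at least 2-fold higher, where 2.18% of all genes were. The 25 include the 3 genes with an ERSE-II, of which HYOU1 and HERPUD1 were among the 5. The 3 genes with an ERSE-II were at 1.40 for HERPUD1, 1.33 for HYOU1 and 0.81 for SDF2L1. In SCD1-KO cells the medians were 0.032 with an ERSE and 0.29 without.

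In the sensor class, XBP1 and EIF2AK3 were higher with T-3764518, while ATF6 and ERN1 differed less or not evenly. XBP1, the transcription factor made from the mRNA that IRE1 splices, had a signal of 1821 with DMSO, 4410 under T-3764518 and 2878 on the SCD1-KO array. Its ratio to DMSO was 1.28 under T-3764518 and 0.66 on the SCD1-KO array, so the SCD1-KO array lay between the other arrays. EIF2AK3, which encodes the kinase PERK, went from 1417 with DMSO to 2810 under T-3764518 and 1908 on the SCD1-KO array, or 0.99 and 0.43. Both rest on 1 kept probe set each.

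ATF6, the membrane-bound transcription factor, had a signal of 608 with DMSO, 838 under T-3764518 and 550 on the SCD1-KO array, and its ratios to DMSO were 0.40 and -0.14. All 4 of its probe sets were above 0 with T-3764518, from 0.094 to 0.97. ERN1, which encodes the kinase and RNase IRE1, had a signal of 280 with DMSO, 290 under T-3764518 and 242 on the SCD1-KO array. Its ratio of 0.054 with T-3764518 hides probe sets that disagree: the brightest of the 3, at 798 with DMSO and 1691 with T-3764518, was at 1.08, and the dimmest, at 113 and 57.5, was at -0.97. The array therefore gives no single direction for ERN1.

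Chaperones had the second highest class median with T-3764518, 0.86, and co-chaperones of the Hsp70 system led them. DNAJB9, an ER J-domain protein that brings unfolded chains and IRE1 to BiP, had a signal of 1241 with DMSO, 4540 under T-3764518 and 2700 on the SCD1-KO array. This was 3.74-fold higher under T-3764518 and 2.12-fold higher on the SCD1-KO array, and all 3 probe sets lay close together, from 1.77 to 1.94 and from 0.97 to 1.31 on the log2 scale. DNAJB9 had the highest ratio to DMSO of all 35 genes in both comparisons.

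HSPA5 encodes BiP, the central Hsp70 of the ER and the classical marker of the unfolded protein response. Its signal was 5128 with DMSO, 11195 under T-3764518 and 6243 on the SCD1-KO array, and the ratios to DMSO were 1.13 and 0.28. The bright probe set went from 23683 to 41691 with T-3764518, or 0.82, and the dimmer one from 1110 to 3006, or 1.44. HSPA5 is past 2-fold as the median of 2 probe sets that lie on either side of 2-fold. HYOU1, an Hsp110-like nucleotide exchange factor of BiP, had a signal of 2848 with DMSO, 7183 under T-3764518 and 2805 on the SCD1-KO array. It was 2.52-fold higher under T-3764518 and at -0.022 on the SCD1-KO array, from 1 probe set, marked _s_at, which may bind several transcripts.

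DNAJC3, a co-chaperone also known as P58IPK, had a signal of 652 with DMSO, 1517 under T-3764518 and 842 on the SCD1-KO array. Its 4 probe sets ran from 0.89 to 1.73 under T-3764518 and from 0.10 to 0.79 on the SCD1-KO array, with medians of 1.13 and 0.29. Under T-3764518, those with DMSO signals of 3037 and 725 were at 0.97 and 0.89. The dimmer ones, with DMSO signals of 261 and 314, were at 1.73 and 1.28, so its place past 2-fold rests on dimmer probe sets. DNAJC10, an ER J-domain protein with thioredoxin domains that reduces disulfides before degradation, had a signal of 578 with DMSO, 804 under T-3764518 and 686 on the SCD1-KO array, or 0.53 and 0.39. In DNAJC10 the T-3764518 and SCD1-KO arrays thus lay close together. The other BiP co-chaperones, DNAJB11 and SDF2L1, were at 0.98 and 0.81 under T-3764518 and at 0.53 and 0.33 on the SCD1-KO array. MANF, a secreted protein that is held in the ER and binds BiP, was at 0.91 and 0.40, and CRELD2, another ER-stress-induced secreted protein, at 0.38 and 0.20.

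With T-3764518 the chaperones HSP90B1, CALR and CANX had ratios of 0.44 or less, and on the SCD1-KO array all 3 were below 0. HSP90B1, which encodes GRP94, the Hsp90 of the ER, had a signal of 6074 with DMSO, 7500 under T-3764518 and 4410 on the SCD1-KO array, or 0.30 and -0.46, and its 2 probe sets, both marked _x_at, which may bind other genes too, were of the same sign in both ratios. The lectin chaperones calreticulin and calnexin bind sugars on folding glycoproteins. CALR, calreticulin, had a signal of 1351 with DMSO, 1350 under T-3764518 and 1026 on the SCD1-KO array, or -0.095 and -0.50 as medians of 3 probe sets. CANX, calnexin, was at 0.44 and -0.042. Another scaling, to the same median signal, moved CALR above 0 with T-3764518, as did a lowess correction.

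**Figure D3:**
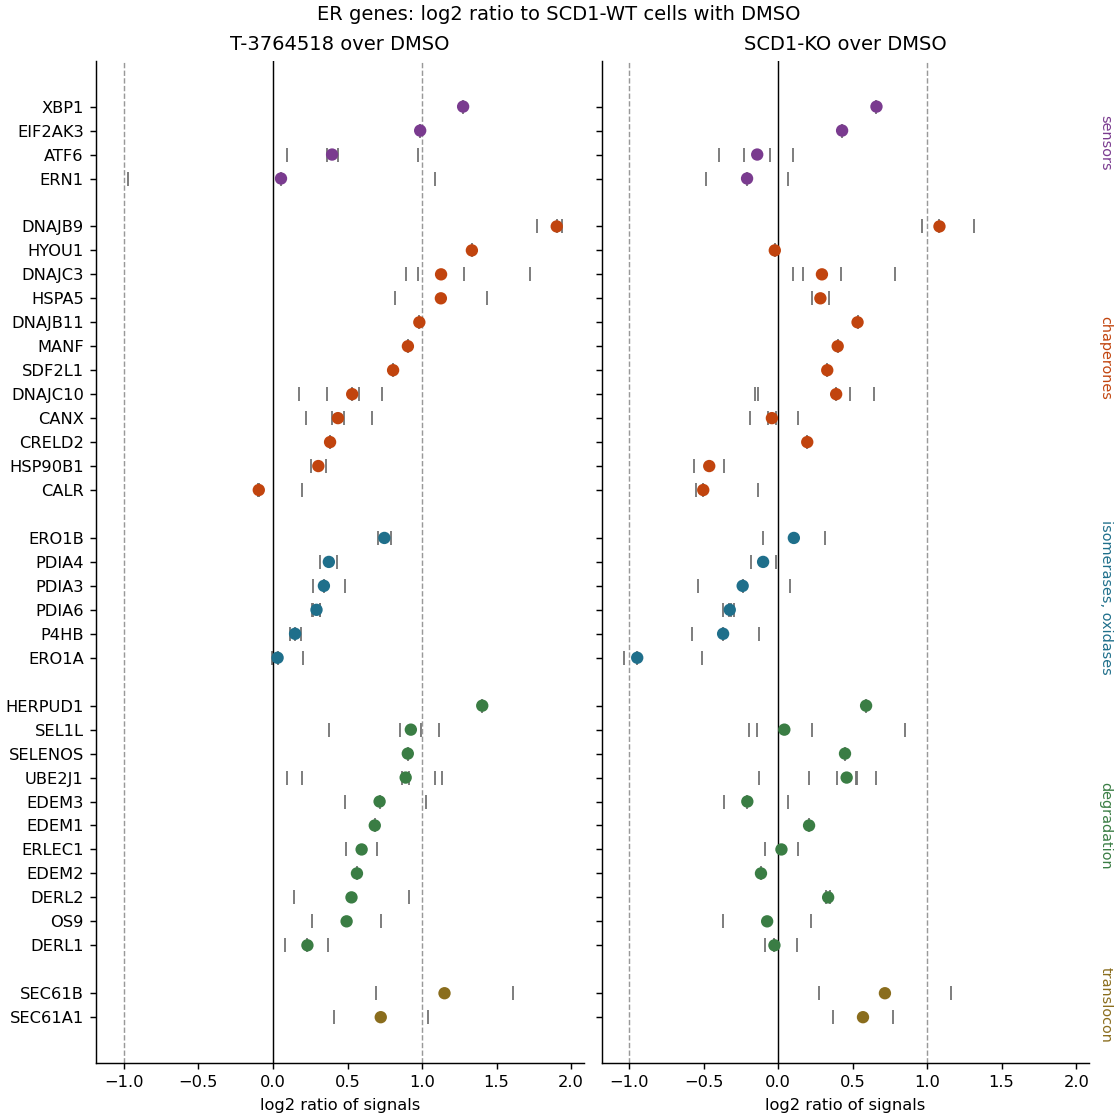
Log2 ratio of signals to SCD1-WT cells with DMSO for each tested ER gene, for T-3764518 (left) and SCD1-KO (right). Coloured points are genes, grey ticks their single kept probe sets, dashed lines 2-fold and colours the roles; most points on the left lie right of 0, up to 1.90 for DNAJB9, and those on the right fall on both sides.

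Disulfide isomerases and oxidases were the class with the lowest median with T-3764518, 0.32, and the lowest in SCD1-KO cells, -0.28. All 6 genes were above 0 with T-3764518, against 41.0% of all genes, and none reached 2-fold, against 2.18%. ERO1A, the oxidase that recharges protein disulfide isomerase and is also known as a hypoxia-induced gene, had a signal of 2865 with DMSO, 3022 under T-3764518 and 1612 on the SCD1-KO array. It was at 0.031 under T-3764518 and at -0.95 on the SCD1-KO array, a 1.93-fold lower value and the lowest of the 35 genes. The brightest of its 3 probe sets was at -0.51 there, a 1.42-fold lower value. Its paralog ERO1B had a signal of 340 with DMSO, 571 under T-3764518 and 366 on the SCD1-KO array, or 0.75 and 0.11, the highest of the class in both ratios.

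The isomerases themselves differed little from DMSO. PDIA4, also called ERp72, had a signal of 5142 with DMSO, 6668 under T-3764518 and 4797 on the SCD1-KO array, or 0.37 and -0.10. P4HB, the archetypal protein disulfide isomerase, was at 0.15 and -0.37, PDIA3, the partner of the lectin chaperones also called ERp57, at 0.34 and -0.24, and PDIA6 at 0.29 and -0.32. The 4 probe sets of PDIA6 spanned only 0.26 to 0.32 under T-3764518 and -0.37 to -0.29 on the SCD1-KO array.

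All 11 tested genes of ER-associated degradation had a ratio above 0 with T-3764518, against 41.0% of all genes, with a median of 0.68. At least 1.5-fold higher were 7 of them, against 6.62% of all genes, and HERPUD1 was the 1 past 2-fold, against 2.18%. Their median in SCD1-KO cells was 0.042. HERPUD1, a membrane protein that gathers the retrotranslocation complex, had a signal of 6710 with DMSO, 17757 under T-3764518 and 10104 on the SCD1-KO array. It was 2.65-fold higher under T-3764518 and 1.51-fold higher on the SCD1-KO array, the highest of this class in both. These values rest on 1 kept probe set, marked _s_at. EDEM3, a mannosidase that trims glycans to mark proteins for disposal, had a signal of 372 with DMSO, 622 under T-3764518 and 331 on the SCD1-KO array, or 0.72 and -0.21. DERL2, a derlin of the retrotranslocation channel, had a signal of 863 with DMSO, 1243 under T-3764518 and 1089 on the SCD1-KO array, or 0.53 and 0.34. DERL1, its paralog, had a signal of 3476 with DMSO, 4069 under T-3764518 and 3488 on the SCD1-KO array, or 0.23 and -0.024, the lowest of the class with T-3764518 and within the SD of 0.36 between probe sets.

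The other 7 tested degradation genes lay between 0.49 and 0.92 with T-3764518. SEL1L, the scaffold of the HRD1 ligase complex, was at 0.92 with T-3764518, and SELENOS, a selenoprotein that recruits the p97 ATPase, at 0.90. UBE2J1, the membrane-anchored ubiquitin-conjugating enzyme, was at 0.89, and the mannosidase family members EDEM1 and EDEM2 at 0.68 and 0.56. The lectins ERLEC1 and OS9, which read trimmed glycans, were at 0.59 and 0.49. In SCD1-KO cells these 7 lay between -0.11 for EDEM2 and 0.46 for UBE2J1. Of the class, 2 genes gave no value. SYVN1, the HRD1 ligase itself, is read by a probe set that the annotation gives to several genes, and the 3 probe sets of DERL3 were all under the signal filter.

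The translocon, the channel through which new proteins enter the ER, had ratios to DMSO above 0 on both arrays. SEC61B had a signal of 774 with DMSO, 1718 under T-3764518 and 1272 on the SCD1-KO array, or 1.15 and 0.72. Its bright probe set was at 0.69 and 0.27 and its dim one, with a DMSO signal of 69.0, at 1.61 and 1.16, so its place past 2-fold rests on a dim probe set. SEC61A1, the pore-forming subunit, had a signal of 1735 with DMSO, 2864 under T-3764518 and 2576 on the SCD1-KO array, or 0.72 and 0.57, and its 2 probe sets were above 0 in both ratios.

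T-3764518-treated SCD1-WT cells and SCD1-KO cells were then compared directly, without the DMSO array. All 35 genes had a ratio of T-3764518 over SCD1-KO above 0, against 44.8% of all genes tested, with a median of 0.54 against -0.057. The exceptions over the alternatives were XBP1 with no filter and DNAJC10 with the brightest probe set. At least 1.5-fold higher were 13 genes, against 9.08% of all. HYOU1 was 2.56-fold higher and alone past 2-fold, against 3.10% of all genes, and none was 2-fold lower, against 4.52%, or 1.5-fold lower, against 14.2%. After HYOU1 at 1.36 came ERO1A at 0.98, EDEM3 at 0.92, HSPA5 at 0.84 and DNAJC3 at 0.83. The lowest were CRELD2 at 0.19, DERL2 at 0.19, SEC61A1 at 0.15 and DNAJC10 at 0.084. A gene's value here is the median of its own probe-set ratios, so it need not equal the difference of the ratios to DMSO, as for ERN1 at 0.54.

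Class by class, the direct ratio was more even than the ratios to DMSO. The sensor class, chaperones, isomerases and oxidases, and degradation genes had medians of 0.57, 0.49, 0.57 and 0.57, and the translocon genes 0.29. HYOU1 and ERO1A came to their high direct ratios differently. HYOU1 was high with T-3764518 and level with DMSO in SCD1-KO cells, whereas ERO1A was level with DMSO under T-3764518 and low in SCD1-KO cells.

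**Figure D4:**
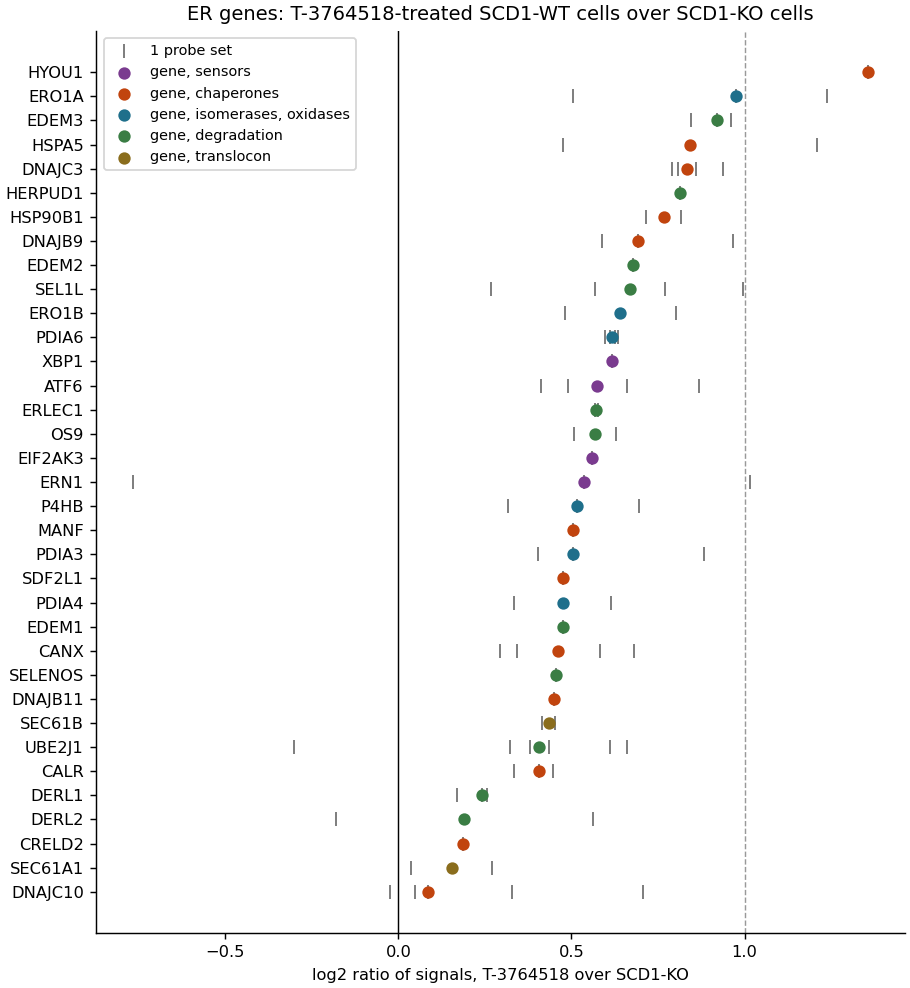
Log2 ratio of signals in T-3764518-treated SCD1-WT cells over SCD1-KO cells for the 35 tested ER genes, ordered by value. Coloured points are genes by role, grey ticks single kept probe sets and the dashed line 2-fold; all genes lie right of 0, from 0.084 for DNAJC10 to 1.36 for HYOU1.

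Probe sets of the same gene served as the only repeat measurement, and they share the hybridisation. Of 84 kept probe sets, 80 were above 0 with T-3764518, against 42.8% of all kept probe sets, and 43 in SCD1-KO cells, against 49.2%. In the direct comparison 80 were above 0, against 46.4%. Among the 24 genes with several probe sets, ERN1, CALR and ERO1A had probe sets of both signs with T-3764518, as had 12 genes in SCD1-KO cells and ERN1, DNAJC10, DERL2 and UBE2J1 in the direct ratio. The SD between probe sets of 1 gene was 0.36, 0.28 and 0.30 for the 3 ratios. In SCD1-KO cells it exceeds the median of 0.11, and the signs of genes near 0 are within it. It does not cover differences between cultures.

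The scale of the arrays sets the zero of each ratio. Scaling the arrays to the same median signal moved the median of all genes up by 0.28 under T-3764518 and by 0.14 on the SCD1-KO array. The share of all genes above 0 then became 69.0% under T-3764518 and 62.3% on the SCD1-KO array, while 35 and 27 of the 35 ER genes were above 0. This scaling adds the same amount to every gene, so the genes that changed sign were those just below 0, CALR under T-3764518 and ATF6, CANX, HYOU1, PDIA4, EDEM2, DERL1 and OS9 on the SCD1-KO array. Quantile normalization and lowess correction, which can shift genes unequally, changed the sign of 0 ER genes on the SCD1-KO array, and lowess turned that of CALR under T-3764518. The ER genes' median exceeded that of all genes by 0.77 under T-3764518 as deposited, by 0.72 after quantile normalization and by 0.73 after lowess correction. On the SCD1-KO array the excess was 0.12, 0.11 and 0.10.

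Lists of folding, degradation and translocation genes outside the 37 had medians of 0.11 to 0.30 with T-3764518. These lie between the -0.087 of all genes and the 0.68 of the ER genes. Regulators of the unfolded protein response outside the 37, described below, had a median of -0.091. Of 35 tested folding factors of the ER not among the 37, 23 were above 0 with T-3764518, against 41.0% of all genes, with a median of 0.13. At least 2-fold higher were 2, against 2.18% of all genes, and none was 2-fold lower, against 3.30%. These 2 were CLGN, a calnexin-like chaperone, at 1.11, and FKBP14, a prolyl isomerase, at 1.20. In SCD1-KO cells 16 were above 0, against 48.9%, and the median was -0.013, with FKBP7, another prolyl isomerase, at 1.19 and QSOX1, a sulfhydryl oxidase, at -1.35. In the direct ratio 26 were above 0, against 44.8%, and the median was 0.30, with LMAN1, a cargo receptor for glycoproteins, at 1.14 and FKBP7 at -1.39.

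Of 33 other tested degradation factors, 21 were above 0 with T-3764518, against 41.0% of all genes, and the median was 0.11. None was 2-fold higher, against 2.18% of all genes, or 2-fold lower, against 3.30%. NPLOC4, a cofactor of p97, was farthest from 0 at 0.58. In SCD1-KO cells 26 were above 0, against 48.9% of all genes, with a median of 0.087. TMEM129, a ubiquitin ligase of the ER membrane, was at 1.11 there. In the direct ratio 20 were above 0, against 44.8% of all genes, and the median was 0.038. TMEM129 was at -1.27 and YOD1, a deubiquitinase, at 1.01. Among 31 tested genes of targeting, translocation and N-glycosylation, 25 were above 0 with T-3764518, against 41.0% of all genes, and the median was 0.30. None was 2-fold higher, against 2.18% of all genes, or 2-fold lower, against 3.30%. SRP19, a subunit of the signal recognition particle, was farthest at 0.98. In SCD1-KO cells 12 were above 0, against 48.9% of all genes, and the median was -0.090. TUSC3, an oligosaccharyltransferase subunit, was at 1.65 from a dim signal of 53.4 with DMSO. STT3A, the catalytic subunit of that enzyme, was at -1.01. In the direct ratio 25 were above 0, against 44.8% of all genes, and the median was 0.34. STT3A was at 1.30, SPCS3, of the signal peptidase, at 1.24 and SRP72 at 1.04.

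Genes listed for the PERK and ATF4 arm had higher medians than the ER genes themselves. PERK activity was not measured, and what raised the listed genes was not tested. All 12 tested genes were above 0 with T-3764518, against 41.0% of all genes, with a median of 1.17, and 6 were at least 2-fold higher, against 2.18%. ATF3, a stress-induced transcription factor, was at 2.86, DDIT3, which encodes CHOP, at 2.24, TRIB3, a pseudokinase, at 2.06, and PPP1R15A, the phosphatase subunit GADD34 that reverses PERK signalling, at 1.75. CEBPG and CHAC1 were the other two. In SCD1-KO cells the median was 0.60 and 5 were at least 2-fold higher, against 3.12% of all genes: ATF3 at 1.35, CHAC1, a glutathione-degrading enzyme, at 1.28, SESN2 at 1.20, TRIB3 at 1.11 and PPP1R15A at 1.06. The direct ratio had a median of 0.64, with DDIT3 at 1.59 and ATF3 at 1.23 past 2-fold, against 3.10% of all genes. This list was drawn up with results on some of its genes known.

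Regulators of the unfolded protein response outside the 37 had medians near those of all genes in both ratios to DMSO. Of 16 tested, 6 were above 0 with T-3764518, against 41.0% of all genes, and the median was -0.091. CREB3L2, a membrane-bound transcription factor akin to ATF6, was the single gene past 2-fold, at 1.07, where 2.18% of all genes were 2-fold higher. In SCD1-KO cells the median was 0.011, and WFS1, an ER membrane protein of calcium homeostasis, was at 1.01. In the direct ratio the median was -0.18, with WFS1 farthest at -0.59. None was 2-fold higher there, against 3.10% of all genes, or 2-fold lower, against 4.52%.

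**Figure D5:**
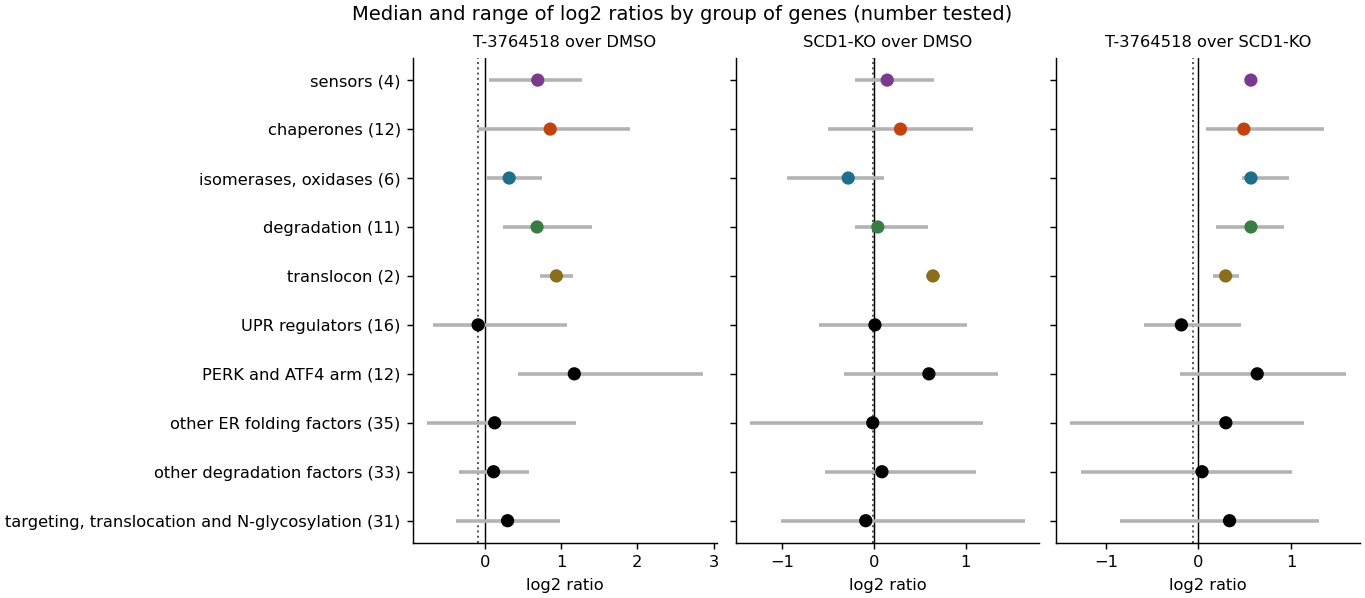
Median (point) and range (bar) of log2 ratios for the 5 classes of ER genes (coloured) and 5 other lists (black), in the 3 comparisons, with the number of genes tested in brackets. The dotted line is the median of all genes tested; with T-3764518 the 5 classes and the PERK and ATF4 arm have medians of 0.32 to 1.17, and the other 4 lists -0.091 to 0.30.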

How the data were processed

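RNA of HCT-116 cells was hybridised to 3 Human Genome U133 Plus 2.0 arrays, 1 for each condition in the labels. The authors deposited 1 signal intensity for each of 54675 probe sets on a linear scale. It is credited to MAS5, which subtracts background and scales each array, in the submitters' processing notes, with a version not given in the sources used. The trimmed mean of the signals (2% removed from each end) was 500.1 on each array. Dim signals are less exact, and the number of arrays limits the precision.

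Names of probe sets came from the platform annotation: 41097 had 1 gene, 1801 had several and 11777 were not listed with one, and 41043 were matched to RefSeq by gene ID. Of the 41097, 23192 were kept because their mean log2 signal reached percentile 50 of the array, which included 84 of the 93 of the ER genes. A gene's ratio was the median over its kept probe sets, with no offset added. Genes were called at 2-fold, and no test was run. The members, lists and rules were chosen with earlier results of these data known. By rule, signals were given for members past 2-fold in any ratio, for HSPA5, HSP90B1, XBP1, ATF6, ERN1 and EIF2AK3 and for the extremes of each class. For other lists the genes past 2-fold were named, up to 4 per direction, or otherwise the farthest from 0. ERSE-II was searched after the promoters had been seen.

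Alternatives were 3 normalizations (quantile, scaling to 1 median, lowess), filters of none and of percentile 75, an offset of 16.5, a floor at 56.6, the brightest probe set or the mean, no probe sets marked _s_at or _x_at, a threshold of 1.5-fold and a call by every probe set. The gene summary was tested on simulated data. The software was Python 3.11.15 with matplotlib 3.10.9, pandas 2.3.3, statsmodels 0.14.6, numpy 2.4.6 and scipy 1.17.1.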

Additional observations from a re-analysis of the deposited data

Results flagged for a closer look

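Some ER gene probe sets that the filter on dim signals left out had a signal above its level with T-3764518. A second HERPUD1 probe set had a signal of 79.3 with T-3764518, 12.1 with DMSO and 20.5 in SCD1-KO cells. A DERL3 probe set had a signal of 57.0 with T-3764518, 24.3 with DMSO and 25.01 in SCD1-KO cells. Both probe sets were picked because a signal away from DMSO reached the filter level of 56.6 while the DMSO signal did not. That pattern is therefore not a separate result, and the DERL3 signal of 57.0 is close to that level. The other DERL3 probe sets, at 38.4 and 4.30 with T-3764518 and 33.5 and 29.2 with DMSO, did not reach that level.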

How the results depend on the processing

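The median ratio of the ER genes ranged from 0.55 to 0.96 with T-3764518, from 0.069 to 0.25 in SCD1-KO cells and from 0.50 to 0.67 in the direct ratio over the alternatives. The highest of each came from scaling to 1 median. All stayed within the SD between probe sets of the reported value, but that SD is not the error of a median over genes. In parentheses is the share of all genes that passed under the same setting. The number at least 2-fold higher with T-3764518 was 16 after scaling to 1 median (4.47%) and 19 at a threshold of 1.5-fold (6.62%). With the brightest probe set it was 5 (2.38%), namely ERN1, XBP1, HYOU1, DNAJB9 and HERPUD1, without HSPA5, DNAJC3 and SEC61B. It was 4 where every kept probe set had to pass (1.85%), these being XBP1, HYOU1, DNAJB9 and HERPUD1. Of these only DNAJB9 has more than 1 kept probe set, so this rule changes nothing for the others. In SCD1-KO cells 2 were higher with no filter (9.02%), 4 at 1.5-fold (9.95%) and 0 where every probe set had to pass (2.49%), and 1, ERO1A, was lower at 1.5-fold (11.4%). In the direct ratio 3 were higher after scaling to 1 median (4.34%), 2 with no filter (12.0%), 2 with a filter at percentile 75 (2.10%), 2 with the brightest probe set (3.22%), 13 at 1.5-fold (9.08%) and 0 without probe sets marked _s_at or _x_at (3.26%), which left 26 genes and removed HYOU1. With no filter 1 gene (12.1%), XBP1, was lower there, through a probe set with signals of 4.30, 5.70 and 45.5 on the DMSO, T-3764518 and SCD1-KO arrays. The translocon median with the brightest probe set was 0.55 under T-3764518 and 0.32 on the SCD1-KO array. For single genes, 35 of 585 values moved by more than the spread between probe sets. With the brightest probe set ERN1 was at 1.08, HSPA5 at 0.82 and SEC61B at 0.69 with T-3764518. No paired analysis was possible because each condition had 1 array. No replicate could be left out for the same reason. The cause of these differences was not tested beyond what the settings themselves change.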
